A study of Mus musculus with 6 samples.

Results

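A set of 10 genes of stored fat and of the hormones that fat releases were followed in mouse gastrocnemius, the large calf muscle: Adipoq, Cfd, Retn and Lep, whose products are secreted; Plin1, Plin4 and Cidec, which coat lipid droplets; Pparg, a transcription factor; and Fabp4 and Scd1, which handle fatty acids. Their probes were found by gene symbol, with no cut on a measured value, from a list written with earlier results of these data known. The array held 12 probes for the 10 genes, and 9 of the 10 passed the filter on dim probes, among 20900 genes tested in all. Total RNA came from the gastrocnemius of male C57BL/6J mice on a standard diet with no treatment, and the comparison asks what differs in this muscle between youth and old age. The young group was 3 mice of 13 weeks and the aged group 3 mice of 26 months, with 1 single-colour Agilent array for each mouse. Each group is a single age with 3 animals, and whole muscle was extracted, so fibres, vessels, connective tissue and any fat between the fibres were measured together.

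White fat cells keep triglyceride in 1 large droplet, whose surface proteins control the access of lipases, and they release hormones that act on muscle, liver and brain. In muscle, such cells lie between the fibres and arise from fibro-adipogenic progenitors of the connective tissue, while the fibres hold small droplets of their own. Several of the genes are therefore almost private to fat cells, such as adiponectin and leptin, whereas Plin4 is also expressed in muscle fibres and Fabp4 in the endothelium of small vessels.

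All 6 arrays were on 1 slide, with the 3 young mice and aged mouse 1 in slide row 1 and aged mice 2 and 3 in slide row 2. The 75th percentile of the processed signal deposited with each array was 244 to 355 in the young group and 321 to 368 in the aged group. The lowest value was that of young mouse 3. Each array was scaled to the 75th percentile of its own log2 probe values, taken after outlier spots were left out. An array had 48.7% to 53.8% of its probes well above background and no saturated spot, and its negative controls had a net signal of 51.9 to 55.1, other than 61.3 for aged mouse 1. The tissue label held against its markers, since all 7 skeletal muscle genes on the list used (such as Acta1, Ckm and Myh4) were well above background in every mouse. Levels are given as log2 of the signal relative to the 75th percentile of the same array, so that 0 is the 75th percentile. Probes differ in how strongly they bind, so a brighter probe is not read as more RNA than a dimmer one. The summed levels given for some lists add the probes as measured, so that bright probes weigh most in them.

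Of all pairs, Adipoq and Cfd had the smallest mean absolute difference over the 6 mice in log2 level centred on each gene's mean. Their promoters are shown for that reason, each running from 250 bases before to 50 after the RefSeq start site on GRCm38.p6. The Adipoq window is chr16:23146286-23146585 on the plus strand and the Cfd window is chr10:79890603-79890902 on the plus strand, and capitals mark each CCAAT box on either strand (CCAAT, or ATTGG where it lies on the minus strand).
Adipoq: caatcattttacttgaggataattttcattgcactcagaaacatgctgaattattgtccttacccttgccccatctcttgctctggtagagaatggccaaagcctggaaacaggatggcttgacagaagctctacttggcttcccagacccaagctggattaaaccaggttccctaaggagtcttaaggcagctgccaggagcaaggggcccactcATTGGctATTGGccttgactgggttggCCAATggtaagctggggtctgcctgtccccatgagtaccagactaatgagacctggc
Cfd: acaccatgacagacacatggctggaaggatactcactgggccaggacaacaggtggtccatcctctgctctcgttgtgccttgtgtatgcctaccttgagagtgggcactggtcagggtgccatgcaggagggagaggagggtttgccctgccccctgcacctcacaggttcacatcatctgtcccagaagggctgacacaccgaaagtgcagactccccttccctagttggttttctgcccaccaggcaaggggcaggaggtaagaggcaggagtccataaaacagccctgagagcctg
The Adipoq window held 3 CCAAT boxes, which began at -34 and -27 from the start site on the minus strand and at -7 on the plus strand, and the Cfd window held none. RefSeq promoters were found for 8 of the 10 genes, 11 windows in all, and 4 motifs were searched on both strands. CCAAT was in 4 of these windows (Adipoq, Plin4 and 2 of Pparg) and in 37.4% of all 32851 promoters. The CEBP motif TTNNGCAA was in 4 windows (Cidec, Lep, Plin1 and Pparg) and in 10.8% of all promoters. The nuclear receptor motif AGGTCA was in 2 windows, both of Pparg, and in 16.3% of all promoters, and TATAAA was in 1 window of Pparg and in 13.6% of all. These matches are letters in a window and not binding sites. No entry was matched for Fabp4 and Scd1.

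None of the 9 genes tested passed the threshold between aged and young mice. The adjusted p from limma, with the Benjamini-Hochberg adjustment over all 20900 genes and a threshold of 0.05, was 0.489 to 0.961, and 0 of the 9 had an unadjusted p under 0.05. Across all genes, 53 were past the threshold (41 higher and 12 lower in aged mice), which is 0.254% of those tested, and 14.4% had an unadjusted p under 0.05. The mean was lower in aged mice for 8 of the 9 genes and higher for Retn, while 56.9% of all genes had a lower mean, and the median difference was -0.24 for the 9 genes and -0.06 for all genes (log2, aged minus young). The aged mice all lay below the young mice for 1 of the 9 genes (Fabp4), against 13.9% of all genes, and all above them for 0 of the 9, against 7.92% of all genes. In whole muscle, the number of fat cells, the RNA in each and the part of other cell types cannot be told apart.

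Adiponectin, the product of Adipoq, is a hormone of fat cells that raises insulin sensitivity and fatty acid oxidation in muscle. Young mice 1 to 3 had log2 levels of 2.05, 1.97 and 1.80, and aged mice 1 to 3 had 2.14, 1.45 and 1.51. The highest value of all was that of aged mouse 1, whereas aged mice 2 and 3 lay below every young mouse. The means of 1.94 ± 0.13 (young) and 1.70 ± 0.38 (aged, SD, n = 3 each) gave a difference of -0.24 (SE 0.23, adjusted p = 0.648).

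Cfd encodes adipsin, a serine protease of the alternative complement pathway that fat cells release in large amounts. Young mice had log2 levels of 5.53, 5.42 and 5.49 and aged mice 5.53, 4.98 and 4.91. Aged mouse 1 was again at the level of the young mice, and aged mice 2 and 3 were below all of them. The difference of -0.34 (SE 0.21) had the lowest adjusted p of the 9 genes, 0.489, from means of 5.48 ± 0.06 and 5.14 ± 0.34 (SD, n = 3). On the linear scale this is 0.791-fold, with a 95% interval of 0.563 to 1.11.

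Retn encodes resistin, a hormone of mouse fat cells known to oppose insulin action. Its log2 levels were 2.14, 1.43 and 1.35 in young mice and 2.005, 1.87 and 1.52 in aged mice. The values of the aged mice lay inside the range of the young, and the difference of means was 0.16 (SE 0.26, adjusted p = 0.803). A second Retn probe differed by -0.01 in means, so the sign depended on the probe.

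Lep encodes leptin, the satiety hormone of fat cells. Its probe was well above background on 1 of the 6 arrays, that of young mouse 1, where its signal was 0.0827 times the 75th percentile, against 0.021 to 0.0398 times on the other 5 arrays. Lep was thus not well above background in the other 5 mice, and neither a test nor a fold is given for it.

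Perilipin 1, encoded by Plin1, coats the large droplet of the fat cell and gates hormone-stimulated lipolysis. The log2 level of Plin1 was -0.08, -0.62 and 0.02 in young mice and -0.23, -0.56 and -1.32 in aged mice. Aged mouse 3 was the lowest, and aged mice 1 and 2 lay within the range of the young. The difference of means, from -0.22 ± 0.34 to -0.71 ± 0.56 (SD, n = 3), was -0.48 (SE 0.32, adjusted p = 0.525).

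Plin4 encodes a perilipin of small and new droplets. Its log2 level was 8.21, 8.09 and 6.41 in young mice and 8.02, 7.34 and 7.16 in aged mice. Young mouse 3 was the lowest of all, below the 3 aged mice, and the other 2 young mice were the highest. The brightest array was 3.50 times the dimmest, and the spread within groups was wider than for 94.0% of all genes. The difference of means was -0.06 (SE 0.51, adjusted p = 0.961), with a 95% interval of -1.27 to 1.14.

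Cidec encodes a protein that fuses small droplets into large ones. Young mice had log2 levels of 2.43, 2.39 and 1.62, and aged mice 2.91, 1.63 and 1.75. Aged mouse 1 had the highest level of all and aged mice 2 and 3 were near young mouse 3, the lowest. The means of 2.15 ± 0.46 and 2.10 ± 0.71 (SD, n = 3) differed by -0.05 (SE 0.40, adjusted p = 0.958). A second, dimmer Cidec probe gave 0.06 and placed aged mouse 1 highest as well, at -1.54 against -2.69 to -1.81 in the other mice.

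Pparg encodes the nuclear receptor that drives fat cell formation and turns on many of the other genes here. Its log2 level was 1.15, 1.32 and 0.85 in young mice and 1.29, 0.90 and 0.39 in aged mice. The groups overlapped, with aged mouse 3 lowest and aged mouse 1 next to the highest. The difference of means was -0.25 (SE 0.27, adjusted p = 0.691).

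Fabp4 encodes a carrier of fatty acids in the cytosol of fat cells and capillary endothelium. The log2 levels were 6.39, 6.52 and 6.62 in young mice and 6.38, 6.12 and 6.39 in aged mice. The aged mice all lay below the young, but the gap between the lowest young and the highest aged mouse was 0.0019, far less than the spread within either group. Fabp4 varied least of the 9 genes, with a spread within groups wider than for 12.5% of all genes. Its difference of -0.21 (SE 0.16, adjusted p = 0.572) had a 95% interval of -0.60 to 0.17.

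Scd1 encodes the desaturase that makes oleate from stearate. Its log2 level was 1.94, -0.04 and 1.91 in young mice and -0.14, 1.21 and 0.10 in aged mice. Both groups held high and low animals: young mice 1 and 3 were high and young mouse 2 was low, and aged mouse 2 was high and the other 2 aged mice low. Scd1 had the widest spread of the 9 genes, wider than for 96.7% of all genes, with the brightest array at 4.25 times the dimmest. The difference of -0.88 (SE 0.61, adjusted p = 0.539) was the largest in size, and its 95% interval ran from -2.34 to 0.57.

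**Figure D1:**
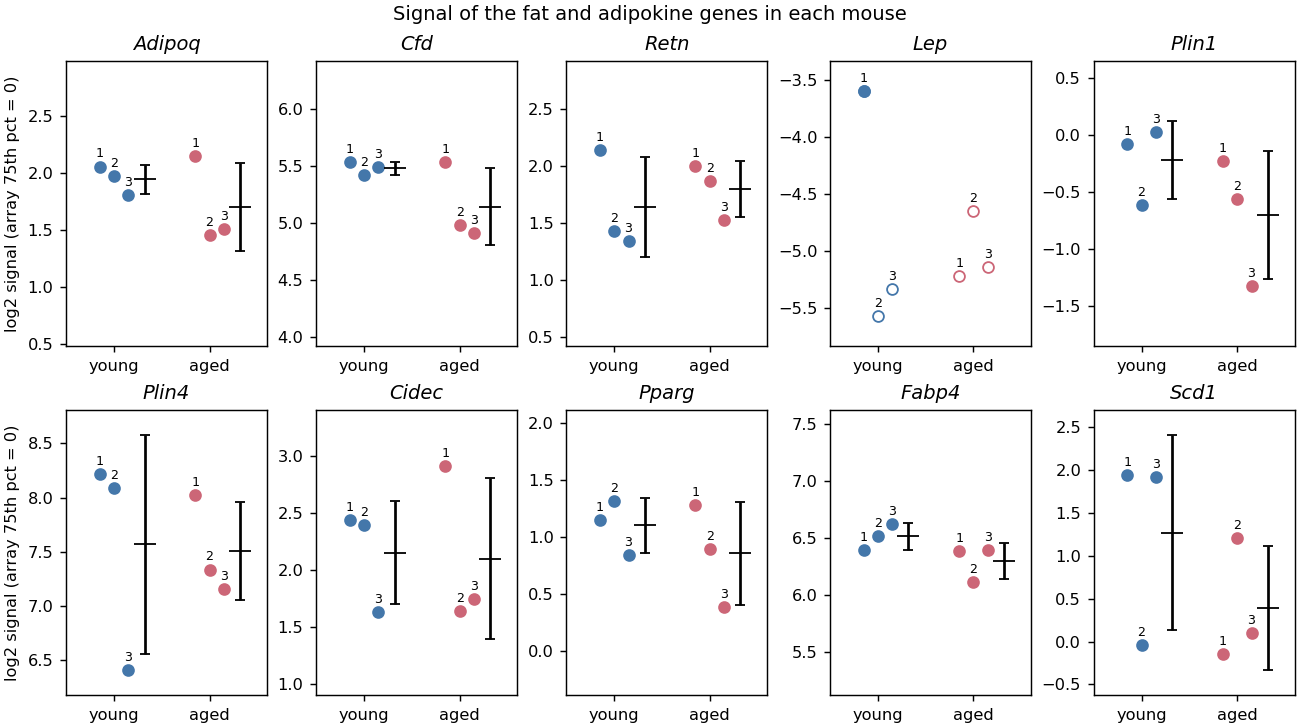
Log2 signal relative to the array's 75th percentile (vertical axis) of each gene in each of the 3 young (blue) and 3 aged (red) mice, numbered by mouse, with the group mean and SD as a bar beside the points; open circles in the Lep panel are not well above background, and the vertical axis differs between panels. Aged mouse 1 lies with the young mice for Adipoq and Cfd, at 2.14 and 5.53, and Scd1 and Plin4 spread most within the groups.

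The intervals leave room for changes of some size. A p that misses the threshold does not show that levels are equal, and the interval of the fold, aged over young, reached from 0.563 to 1.11 for Cfd and from 0.582 to 1.23 for Adipoq, but from 0.414 to 2.21 for Plin4 and from 0.198 to 1.48 for Scd1. Fabp4 had the narrowest interval, 0.658 to 1.13. With 3 mice a group, an exact permutation test of a single gene could not go below 0.1.

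**Figure D2:**
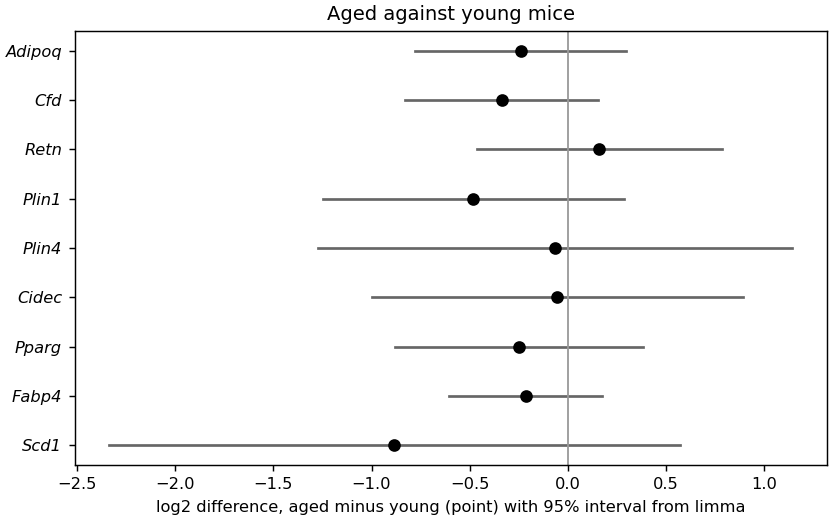
Difference of group means for the 9 genes tested (horizontal axis, log2, aged minus young), as a point with its 95% interval from limma. All 9 intervals cross 0, and those of Scd1 (-2.34 to 0.57) and Plin4 (-1.27 to 1.14) are the widest.

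The genes did not vary as 1 block across mice. When each gene was centred on its own mean, young mice 1 to 3 had a median over the 9 genes of 0.31, 0.11 and -0.02, and aged mice 1 to 3 one of 0.28, -0.20 and -0.38. Young mouse 1 and aged mouse 1 were thus the highest and aged mouse 3 the lowest. Adipoq and Cfd differed by 0.08 on average over the 6 mice, the smallest distance among the pairs, followed by Cfd with Fabp4 at 0.16 and Adipoq with Pparg at 0.16. Scd1, the gene with the widest spread, was at 1.09 from Cidec and 1.08 from Plin4, the largest distances. This distance depends on how widely a gene varies as well as on the shape of its profile.

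**Figure D3:**
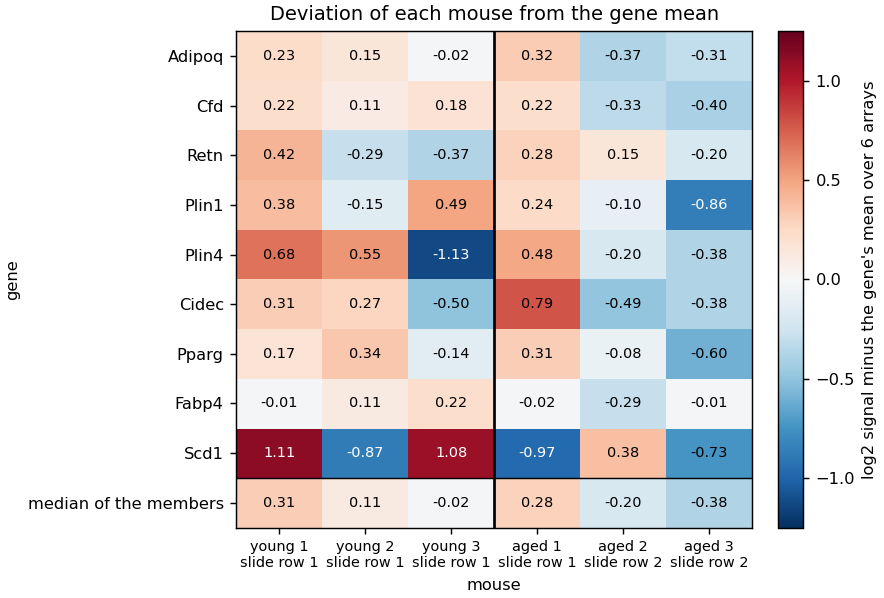
Level of each gene (rows) in each mouse (columns) minus the gene's mean over the 6 arrays, in log2 units by the colour bar, with the median of the 9 genes in the last row and the slide row under each mouse. Adipoq and Cfd are above their means in aged mouse 1 (0.32 and 0.22) and below them in aged mice 2 and 3 (-0.31 to -0.40), while Scd1 runs from 1.11 in young mouse 1 to -0.97 in aged mouse 1.

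Some of these differences changed sign when the slide row was taken as a block, and others did not. For 2 of the 9 genes, Adipoq and Cfd, both arrays of slide row 2 were below all 4 of slide row 1, which held for 14.9% of all genes, a pattern looked for after the values were seen. With the slide row as a block, which leaves aged mouse 1 against the 3 young mice, the difference was 0.20 for Adipoq, 0.05 for Cfd, 0.45 for Plin4, 0.76 for Cidec and 0.18 for Pparg, the opposite sign to that over all mice in each case. Plin1 (-0.01), Fabp4 (-0.13), Scd1 (-1.41) and Retn (0.36) kept their signs. The adjusted p was 0.470 to 0.996 over the 9 genes, and the median was 0.18. For aged mice 2 and 3, age and slide row cannot be told apart. Without aged mouse 1 the median of the 9 genes was -0.46, with -0.46 for Adipoq (adjusted p = 0.243) and -0.53 for Cfd (adjusted p = 0.179).

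**Figure D4:**
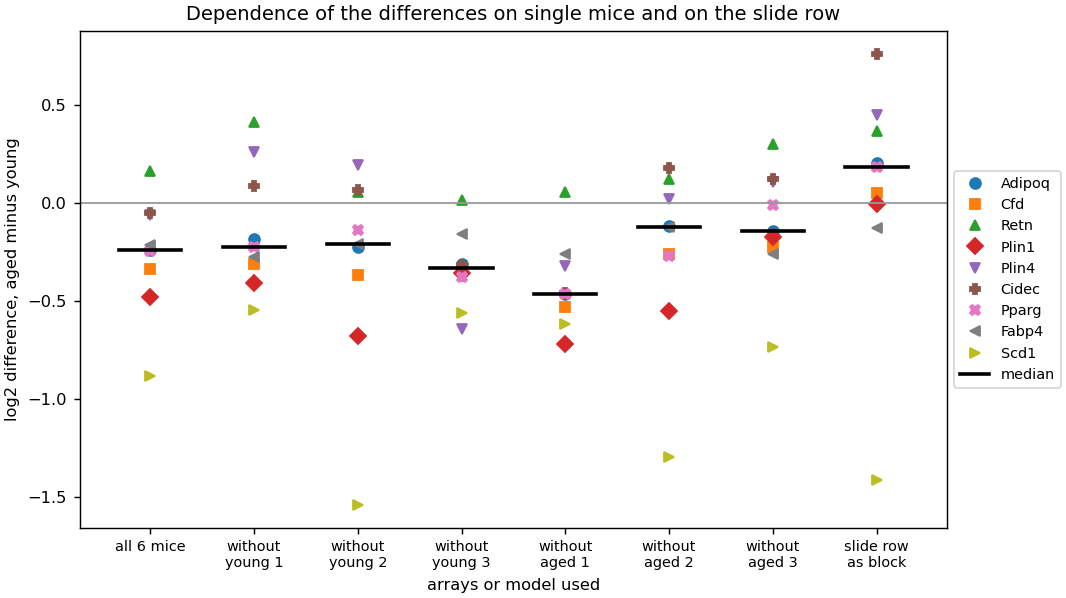
Difference between aged and young mice (vertical axis, log2) of each of the 9 genes with all 6 mice, without each mouse in turn and with the slide row as a block (horizontal axis), with the median as a black line. The median goes from -0.24 with all mice to -0.46 without aged mouse 1 and 0.18 with the slide row as a block.

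Genes that work beside these were read from lists of 121 genes in all, 113 of which could be tested. None was past the threshold (lowest adjusted p 0.137), 8 were higher and 11 lower at an unadjusted p under 0.05 (14.4% of all genes had such a p, in either direction), and their median difference was -0.17. For 10 of the 113 every aged mouse was above every young mouse and for 16 every aged mouse was below, against 7.92% and 13.9% of all genes. Among other adipocyte genes, 6 of 8 tested had a lower mean in aged mice, with a median of -0.40. Their range went from Adig, an adipocyte membrane protein, at -0.91 (SE 0.41, adjusted p = 0.376) to Adrb3, the beta-3 adrenergic receptor of fat cells, at 0.84 (SE 0.36, adjusted p = 0.353). The summed level of the 8 was 406 to 468 times the 75th percentile in young and 328 to 403 in aged mice, but 97.1% to 98.8% of it came from the probe of Car3, a carbonic anhydrase that muscle fibres also express and that is named after its values were seen. The other 7 genes summed to 6.49 to 12.3 times in young and 4.07 to 7.24 times in aged mice. The probe of Adig weighed most in this sum, at a log2 level of 1.22 to 3.32, against at most 0.22 for the rest. For Adig, aged mouse 1 lay within the range of the young mice, at 2.30. Aged mice 2 and 3, both in slide row 2, were below every young mouse, at 1.50 and 1.22. Age and slide row thus cannot be told apart in the lower Adig of aged mice 2 and 3, or in its part of this sum. Lgals12 was not well above background in any mouse.

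Of 5 genes of brown fat cells, 3 were tested and had higher means in aged mice (median 0.24), with Dio2, which activates thyroid hormone, at 0.52 (SE 0.19, adjusted p = 0.299). Ucp1, the uncoupling protein that defines brown fat, was well above background on 1 array, that of aged mouse 1, and is named here after its values were seen. Its log2 level there was -2.88, against -6.24 to -5.88 in the other 5 mice. The same mouse had the highest Cidec, Adipoq and Cidea, the last also named after its values were seen, at 2.69 against 1.32 to 2.17 elsewhere. Aged mouse 1 was not the highest for Cfd, Retn, Plin1, Plin4, Pparg, Fabp4 or Scd1, and had the lowest Scd1. It was not the highest for the other brown fat genes tested: Dio2 was -0.79 there and -0.68 in aged mouse 3, and Prdm16, also named after its values were seen, was -1.55 there and -1.67 to -1.40 in the other mice. Elovl3, another brown fat gene, was not well above background in any mouse. The part of brown fat cells in the levels of Cidec and Adipoq was not tested.

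No receptor of the secreted proteins passed the test. Adipor1 and Adipor2, the adiponectin receptors, differed by -0.08 (SE 0.16) and -0.10 (SE 0.15), and Cdh13, which binds adiponectin at the cell surface, by 0.05 (SE 0.19), with adjusted p of 0.833, 0.799 and 0.914. Lepr, the leptin receptor, differed by -0.20 (SE 0.23, adjusted p = 0.706). Cfb, the complement factor that adipsin cleaves, had the lowest adjusted p of all list genes, 0.137. Its log2 level was 0.48, -0.62 and -0.04 in young mice and 1.24, 1.50 and 2.08 in aged mice, and the groups did not overlap, with a difference of 1.67 (SE 0.34). Aged mouse 1 was above all young mice for Cfb but at their level for Cfd itself. C3, the protein that the pathway cleaves next and a gene named after its values were seen, was at 5.44 to 5.90 in young and 6.38 to 6.79 in aged mice (difference 0.86, adjusted p = 0.158). Among other adipokines, 5 of 11 tested were higher and 6 lower (median -0.02), from Angptl4, a lipoprotein lipase inhibitor, at 1.98 (SE 0.77, adjusted p = 0.322) to Apln, the peptide hormone apelin, at -1.20 (SE 0.40, adjusted p = 0.268).

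Genes of the fatty acid pathways lay mostly below 0 without passing the test. In fatty acid synthesis and desaturation, the pathway of Scd1, 10 of 12 had a lower mean (median -0.29), and Srebf1, which switches on lipid synthesis genes, differed by -0.87 (SE 0.24, adjusted p = 0.204). The Srebf1 groups did not overlap, at -0.96 to -0.29 in young and -1.80 to -1.33 in aged mice, unlike those of Scd1. Fads1, a desaturase of polyunsaturated fatty acids, was at the other end with 0.54 (SE 0.23, adjusted p = 0.346). Fatty acid uptake and binding, the group of Fabp4, had 8 of 9 lower (median -0.30), led by Lpl, which frees fatty acids from lipoproteins, at -0.81 (SE 0.43, adjusted p = 0.430). Slc27a4, a fatty acid transporter, was the only one higher, at 0.16. In 5 of these 9 and in 6 of the 12 synthesis genes, both arrays of slide row 2 were below all of row 1, against 14.9% of all genes, again a pattern looked for after the values were seen.

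The other lipid droplet proteins showed no common direction. Most genes tested for lipolysis, triglyceride synthesis and adipogenic transcription had a lower mean in aged mice, as did 56.9% of all genes. Of the other lipid droplet proteins 4 were higher and 4 lower (median 0.03), from Fitm1 at -0.43 (SE 0.21) to Fitm2 at 0.50 (SE 0.26), both of which partition new fat into droplets. Lipolysis, which perilipin 1 restrains, had 5 of 6 lower (median -0.06), between Abhd5, the partner released by perilipin 1, at -0.31 and the hormone-sensitive lipase Lipe at 0.38. Triglyceride synthesis had 5 of 8 lower (median -0.19), between Dgat2, which adds the last acyl chain, at -1.04 (SE 0.46, adjusted p = 0.370) and Lpin1, a phosphatidate phosphatase, at 1.45 (SE 0.999, adjusted p = 0.535). Adipogenic transcription, the group around Pparg, had 9 of 10 lower (median -0.41). These genes lay between Zfp423, a factor of committed preadipocytes, at -0.67 (SE 0.23, adjusted p = 0.273) and Cebpa, the partner of Pparg, at 0.64 (SE 0.74, adjusted p = 0.714). In 5 of these 10, both arrays of slide row 2 were below all of row 1, against 14.9% of all genes. That pattern too was looked for after the values were seen. Young mouse 3, the lowest mouse for Plin4, was also the lowest for Lpin1 (1.27 against 4.86 to 5.51) and for Cebpa (-3.24 against -1.09 to -0.27). Young mice 1 and 2 were at -0.41 and -0.57 for Cebpa, within the range of the aged mice. For Lpin1 they were at 5.36 and 4.86, against 5.14 to 5.51 in the aged mice. The higher aged means of both genes thus rested largely on the array of young mouse 3.

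Other cell types that bear on these genes were read the same way, and their part in the levels was not tested. The 7 genes of fibro-adipogenic progenitors had 3 higher and 4 lower (median -0.12). They ran from Dcn, a matrix proteoglycan, at -0.85 (SE 0.34, adjusted p = 0.330) to Cd34, a surface protein of stem and vessel cells, at 0.69 (SE 0.52, adjusted p = 0.564). Their summed level was 387 to 412 times the 75th percentile in young and 194 to 362 in aged mice, with 60.4% to 88.9% of it from the probe of Dcn. Without Dcn the other 6 summed to 43.2 to 57.0 times in young and 50.7 to 76.8 times in aged mice. Cd34, which is part of this sum, was at a log2 level of 3.24 to 3.88 in young mice. In aged mice 1 to 3 Cd34 was at 3.10, 5.01 and 4.88, so aged mouse 1 was below every young mouse. Endothelial genes, whose cells also express Fabp4, had 5 of 8 lower (median -0.20, summed level 36.5 to 42.9 in young and 25.5 to 37.3 in aged mice), from the junction protein Cdh5 at -0.79 (SE 0.22, adjusted p = 0.215) to Pecam1 at 0.52. Young mouse 3 was the lowest for Pecam1, at -2.33 against -0.99 to 0.05 in the other mice. Macrophage genes had 5 of 7 higher (median 0.46), from the integrin Itgam at -0.26 to the lysozyme Lyz2 at 1.36 (SE 0.67, adjusted p = 0.406). Young mouse 3 was also the lowest for Lyz2, at -3.33 against -1.45 to -0.01. The summed macrophage level was 39.5 to 47.2 in young and 42.8 to 45.2 in aged mice, with 39.8% to 57.4% of it from the probe of Itgam. Without Itgam the other 6 summed to 19.2 to 21.0 in young and 21.2 to 27.2 in aged mice. Cd163 was not well above background in any mouse. All 7 skeletal muscle genes had a lower mean in aged mice (median -0.18), the largest difference being that of Tnnt3, a fast troponin, at -0.27 (SE 0.16, adjusted p = 0.466).

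**Figure D5:**
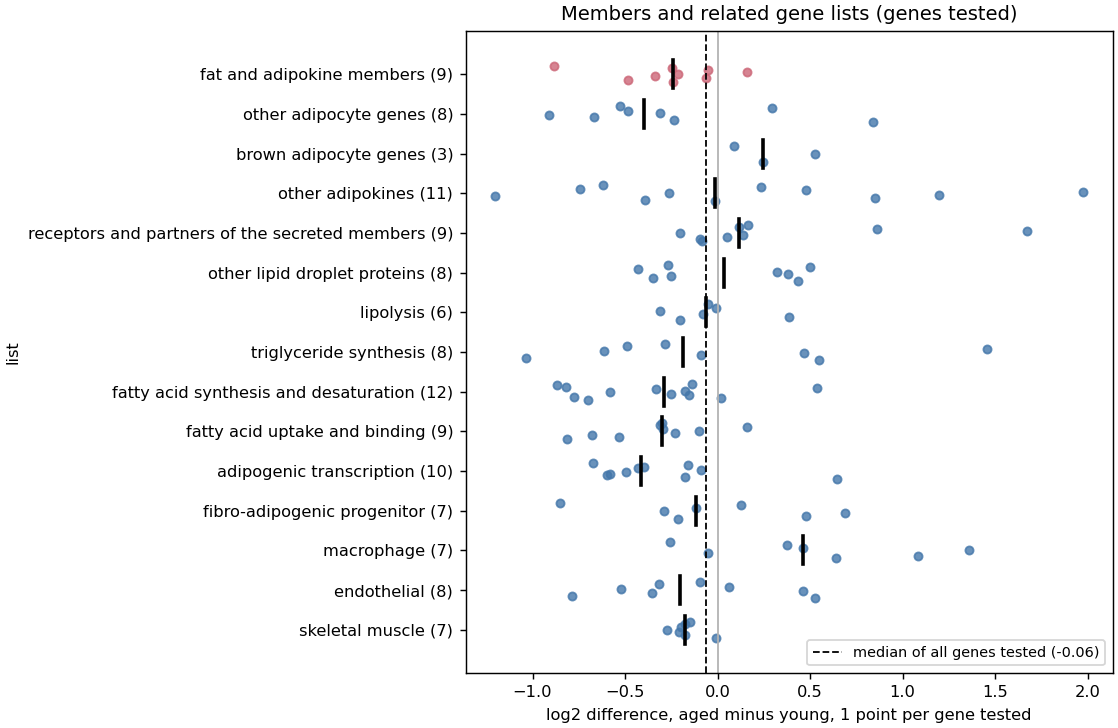
Difference between aged and young mice (horizontal axis, log2) of each gene tested, 1 point per gene, for the fat and adipokine genes (red) and each related list (blue, number tested in brackets), with list medians as bars and the median of all genes, -0.06, as a dashed line. The medians run from -0.41 for adipogenic transcription to 0.46 for macrophage genes, and the 9 fat and adipokine genes have a median of -0.24.

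Among 13835 genes with a symbol outside the 9, the closest to their mean profile over the 6 mice were Zbtb38, Ptpro, 2510002D24Rik, Ift74, Acer3, Kxd1, Cyb5a and Nr1h4, with mean absolute differences of 0.06 to 0.08 on the log2 scale. None of these 8 was on a list. Among list genes the closest was Vwf, an endothelial clotting factor, at 0.11 and rank 72. With 6 arrays many genes take a similar profile, and the profile also follows the slide row.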

How the data were processed

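Total RNA of gastrocnemius muscle from 3 young and 3 aged male mice was labelled with Cy3 and hybridized to Agilent arrays, 1 per mouse. The authors deposited Feature Extraction output (version 9.5 in the submitters' processing notes, 11.0.1.1 in the file headers) with the processed signal as a linear intensity, background subtracted and detrended within an array and not scaled between arrays. The methods name no normalization or test for the arrays. A series matrix, also deposited, repeated these intensities.

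Outlier spots were left out (161 to 212 of 59305 non-control spots per array), log2 intensities were averaged per probe, and each array's 75th percentile was subtracted. Of 55681 probes, 12 were dropped because an array had no other spot of theirs. Accessions were matched to RefSeq symbols of GRCm38.p6, which named 28335 probes, and the others kept the identifier of the file. A probe was kept when well above background on at least 3 of 6 arrays, and a gene was represented by its kept probe with the highest mean, which gave 20900 genes. Groups were compared with limma 3.58.1 (lmFit and eBayes) in R 4.3.3, with Benjamini-Hochberg adjustment and a threshold of 0.05. SE and 95% intervals are those of limma. On simulated data of the comparison between aged and young mice with 20900 genes, the share of changed genes recovered was 0% for a log2 change of 1 (0 unchanged genes called), 72.5% for 2 (5 called) and 85% for 3 (6 called). The number of arrays limits the precision.

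The 10 genes and all lists were chosen with earlier results of these data known. Besides the 10 genes, the text names from each list the gene with the largest increase and the largest decrease. By the same rule it names Adipor1, Adipor2, Cdh13 and Lepr, and the 8 genes nearest in profile. Outside this rule, Car3, Ucp1, Cidea, Prdm16 and C3 were named after their values were seen. Also outside it are Vwf, the muscle examples Acta1, Ckm and Myh4, and Lgals12, Elovl3 and Cd163, which could not be tested. Promoters came from RefSeq on GRCm38.p6, while the array was designed on another build and no probe coordinates are given. The alternatives tried were background correction by normexp with an offset of 50 (on median spot signals, the mean not being used here), quantile and median scaling, the percentile over detected probes, other filters on dim probes, the mean of a gene's probes, the series matrix, a mean-variance trend, a block for slide row or for replicate number, and the omission of each mouse. The study's metabolite, RT-PCR and lipid measurements were not analysed here.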

Additional observations from a re-analysis of the deposited data

How the results depend on the processing

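None of the 9 fat and adipokine genes tested and none of the 113 list genes passed the threshold under any of the 17 alternatives. In simulated data the fit called 0% of genes changed by a log2 of 1, so the absence of calls does not speak to changes of that size, and the intervals of single genes are the better guide. The count over all genes was 53, and was 8 without a filter on dim probes, where 36710 genes were tested. It was 35 when all 6 arrays had to be well above background (18551 genes tested), 5 with a replicate block, and 1 (without aged mouse 3) to 199 (without aged mouse 1) when 1 mouse was left out. Under the other alternatives it was 41 to 73. Scaling to the median moved the median difference of all genes from -0.06 to -0.21.

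The median of the 9 genes was 0.18 with the slide row as a block. With that block the difference turned to 0.20 for Adipoq, 0.0516 for Cfd, 0.76 for Cidec, 0.45 for Plin4 and 0.18 for Pparg, since it compares aged mouse 1 alone with the young mice. Cidec was 0.0029 with the mean of its probes and -0.46 to 0.18 when 1 mouse was left out, and Plin4 was 0.0393 after quantile normalization and -0.64 to 0.26 when 1 mouse was left out; the cause was not tested. Fabp4, Plin1, Retn and Scd1 kept their signs under every alternative run. Plin1 was as small as -0.0055 with the slide row as a block, and Retn 0.0129 with median scaling. No alternative used the second Retn probe alone, which differed by -0.01. The deviations of mice with the same replicate number had correlations of -0.06, -0.27 and 0.03 for numbers 1 to 3. Those of mice with different numbers were -0.21 to 0.35. With 3 mice a group, these values cannot settle whether the numbers pair the mice. The replicate block called none of the 9 genes, and none was called without it.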
